A study of Rattus norvegicus with 6 samples.

Results

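Endothelin, kinin, adrenomedullin and natriuretic peptide genes were followed in brain capillaries of stroke-prone spontaneously hypertensive rats (SHRSP), an inbred strain with high blood pressure and frequent strokes. The members were all probe sets that the annotation of the Affymetrix RG_U34A array, a rat oligonucleotide array, assigned to 1 of 10 listed genes. They were 14 of 8740 gene probe sets and belonged to 8 genes: Edn1, Ece1, Bdkrb1, Bdkrb2, Adm, Nppc, Npr1 and Npr3. The endothelin receptor genes Ednra and Ednrb had no probe set assigned and were not analysed here. Total RNA had been measured on 6 arrays, 2 for each of 3 groups. The rats were 6 weeks old. The ACEI group was labelled as given lisinopril, which inhibits angiotensin-converting enzyme (ACE), at 6 mg per kg body weight per day. The ARB group was labelled as given olmesartan, a blocker of the angiotensin receptor, at 4 mg per kg by mouth daily. The labels also name 1% NaCl, and do not say whether the control group alone or all groups received it. The sex of the rats, the length of treatment, and whether an array held RNA of 1 rat, of pooled rats or of repeated RNA are not given in the sources used here, so p-values below measure only the spread between these arrays, which may be technical. The question stated in the labels is how angiotensin II affects expression in these vessels.

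These peptides act on vessel tone alongside angiotensin II. Endothelin-1 is made by endothelium, is cut to its active form by endothelin-converting enzyme and constricts smooth muscle through the receptor ETA, whereas ETB on endothelium releases nitric oxide. Bradykinin and its shortened forms dilate vessels and open the blood-brain barrier through the receptors B2 and B1, of which B2 is usually present at all times and B1 is induced in injury and inflammation, and ACE is also a main kinin-degrading enzyme. Adrenomedullin and C-type natriuretic peptide (CNP) are dilator peptides of the vessel wall. Natriuretic peptides signal through receptors that make cyclic GMP and are cleared by a further receptor without that enzyme.

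The sequences just upstream of the annotated starts of Edn1, Bdkrb1 and Nppc are shown because these genes had the largest differences between arrays of one group or between groups. RefSeq gave such a sequence for 9 of the 10 listed genes on build GRCr8, and each is read 5′ to 3′ on the gene's strand and ends at the last base before the start. Capitals mark matches to the motifs searched: TATAAA on the gene's strand, and, on both strands, the CCAAT box, the GATA factor site AGATAA, the hypoxia response core ACGTG, the AP-1 site TGANTCA, the cyclic AMP response element TGACGTCA and the octamer TGACATCA.
Edn1, chr17:22666688-22666937, minus strand: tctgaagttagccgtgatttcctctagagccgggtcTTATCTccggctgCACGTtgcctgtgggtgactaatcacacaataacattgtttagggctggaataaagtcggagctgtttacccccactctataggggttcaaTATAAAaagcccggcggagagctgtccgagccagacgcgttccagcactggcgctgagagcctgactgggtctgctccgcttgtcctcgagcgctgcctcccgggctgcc
Bdkrb1, chr6:130275436-130275685, plus strand: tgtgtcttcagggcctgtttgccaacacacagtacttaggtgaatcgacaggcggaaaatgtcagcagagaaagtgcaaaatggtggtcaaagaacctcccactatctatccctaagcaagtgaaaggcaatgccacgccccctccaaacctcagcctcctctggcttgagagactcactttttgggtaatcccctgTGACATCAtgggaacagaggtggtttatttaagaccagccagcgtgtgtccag
Nppc, chr9:94772187-94772436, minus strand: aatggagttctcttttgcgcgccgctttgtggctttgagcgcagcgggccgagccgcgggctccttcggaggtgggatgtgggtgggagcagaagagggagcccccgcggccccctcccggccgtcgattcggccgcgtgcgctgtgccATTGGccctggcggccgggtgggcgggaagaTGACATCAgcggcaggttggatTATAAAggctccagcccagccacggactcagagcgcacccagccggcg
The Edn1 window held a TATAAA from 110 to 105 bases before the start, a GATA site on the opposite strand from 214 to 209 and an ACGTG core from 201 to 197. The Nppc window held a TATAAA from 48 to 43 bases before the start and a CCAAT box on the opposite strand from 101 to 97. The octamer TGACATCA, which was searched after these sequences had been seen, lay 53 to 46 bases before the Bdkrb1 start and 70 to 63 before the Nppc start, and in no other member window. It was present in 3.8% of 33469 windows of 250 bases, TATAAA in 8.06%, AGATAA in 10.3%, ACGTG in 16.6% and CCAAT in 34%. CCAAT was also in the windows of Ece1 and Npr1, and no member window held TGANTCA (6.34% of windows) or TGACGTCA (1.59%). A match is a description of letters, and motifs on one strand can overlap others.

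Intensities are given per array in the order 1, 2 within each group, on the linear scale of the deposited table, and a title without a number was taken as array 1. Differences are log2(intensity + 90), which understates the change of dim probe sets, and are followed by the standard error of limma's fit over all 6 arrays. Of the 14 member probe sets, 9 passed a filter that left out the dimmest 40%, and 5 lay under it. For the latter, differences from an unfiltered fit are given. "Higher" and "lower" below describe values, since no member passed the test at an adjusted p under 0.05 in any comparison.

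The 2 ARB arrays stood apart from the others in ways that reached all probe sets. Their array medians were 486.7 to 495.7 against 246.1 to 354.3 on the other 4, although all arrays had been scaled to nearly the same trimmed mean. The 15 probe sets of bacterial genes that serve as controls had a median of 80.9 to 91.4 on the ARB arrays and 18.4 to 28.8 elsewhere. Control 2 had a 3′ to 5′ ratio of Gapdh probe sets of 7.31, against 0.93 to 1.59 on the other arrays. Control 1 and ACEI 1 shared a run day, the date of hybridization in the run files, and a chip lot, and the other 4 arrays shared a later day and a different lot, so ARB could be compared with control within a run day only through control 2. Of 20 listed endothelial markers, 12 had a probe set and all 12 passed the filter, which rests on the mean over all arrays. That does not place each marker above background on each array. Icam2, for example, read 208.3 on ARB 1, where the upper quartile of the bacterial controls was 223.9. Pecam1, an endothelial adhesion molecule, read 5538 and 193.8 in control, 2728 and 5564 in ACEI, and 552.7 and 316.6 in ARB. Neuronal, glial, smooth muscle and blood markers also had probe sets that passed the filter, and their levels in each group are given with the ARB results.

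Endothelin-1 mRNA differed most between the control arrays. The Edn1 probe set M64711_at read 3014 and 233.8 in control, 1722 and 2651 in ACEI, and 524 and 1212 in ARB. Control 1 was the highest of the 6 arrays and control 2 the lowest, so neither treated group was separate from control, whereas both ARB arrays lay below both ACEI arrays. The gap between the control arrays was 3.26 on the log2 scale, against a median gap of 0.68 over all tested probe sets, and 2.19% of them had a larger one. ACEI minus control was 1.15 ± 0.95 (SE, 95% interval -1.02 to 3.32, adjusted p = 0.99 by limma), ARB minus control -0.17 ± 0.95 (-2.34 to 2.01, adjusted p = 0.94), and ARB minus ACEI -1.32 ± 0.95 (-3.49 to 0.85, adjusted p = 0.44). Within the first run day ACEI 1 lay 0.78 below control 1 (-0.78), and within the later day ACEI 2 lay 3.08 above control 2 and the ARB mean 1.46 above it. The direction of the Edn1 difference from control thus turned with the control array used. Without control 1 the differences were 2.78 for ACEI and 1.46 for ARB, and without control 2 they were -0.48 and -1.80.

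The low value of control 2 was shared by Pecam1, whose 2 control values are given above. A g-type probe set of Vwf, the endothelial von Willebrand factor, read 596.3 and 49.2 in control, 304.7 and 282 in ACEI, and 271.7 and 476.7 in ARB. Mbp, a myelin protein gene of oligodendrocytes, read 5492 and 234.3 in control, 9124 and 7592 in ACEI, and 626.1 and 668.7 in ARB. Of the 12 endothelial markers, 9 read lower on control 2 than on control 1. Their summed level was 72830 and 151100 in control, 77590 and 80690 in ACEI, and 66620 and 76360 in ARB, and most of it came from the transporters Slc2a1 and Slco1a4, which were among the other 3. Between ARB and ACEI, 10 of 12 endothelial markers were lower with ARB, with a median of -0.74, the direction of the Edn1 difference. The largest differences were Pecam1 -2.97, Flt1 -1.99, Icam2 -1.84 and Nos3 -1.30. Pecam1 and Icam2 were the 2 with an unadjusted p under 0.05 by limma, as were 6.71% of all tested probe sets in that direction. The g-type Vwf probe set (0.24) and Slco1a4 (0.27) were higher with ARB, as were 56.5% of all. Another Vwf probe set past the filter, U50044cds_at, did not share this. It read 617.8 and 164.1 in control, 531.2 and 186.8 in ACEI, and 248 and 79 in ARB, with ARB 2 lowest. In bulk RNA of this kind, fewer cells of a type and less RNA per cell cannot be told apart. The part of these markers and of the Gapdh ratio in the Edn1 values was not tested.

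Endothelin-converting enzyme, which cuts the inactive precursor to endothelin-1, had 2 probe sets that differed in their pattern. Ece1 D29683_at read 4882 and 2823 in control, 3018 and 3900 in ACEI, and 2020 and 2031 in ARB. The ARB arrays lay close together and below all 4 others, whereas the ACEI and control arrays overlapped. ARB minus control was -0.85 ± 0.48 (SE, -1.94 to 0.25, adjusted p = 0.38 by limma), and -0.46 within the later run day. ARB minus ACEI was -0.74 ± 0.48 (adjusted p = 0.39), and ACEI minus control -0.11 ± 0.48 (-1.21 to 0.98), with -0.68 in the first and 0.45 in the later run day. Ece1 rc_AA956930_s_at read 824.6 and 250.7 in control, 495.3 and 428.6 in ACEI, and 449.5 and 499.7 in ARB. Here the control arrays enclosed all treated ones, and the differences from control were -0.019 ± 0.56 for ACEI and 0.015 ± 0.56 for ARB, the latter -0.57 after quantile normalization.

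**Figure D1:**
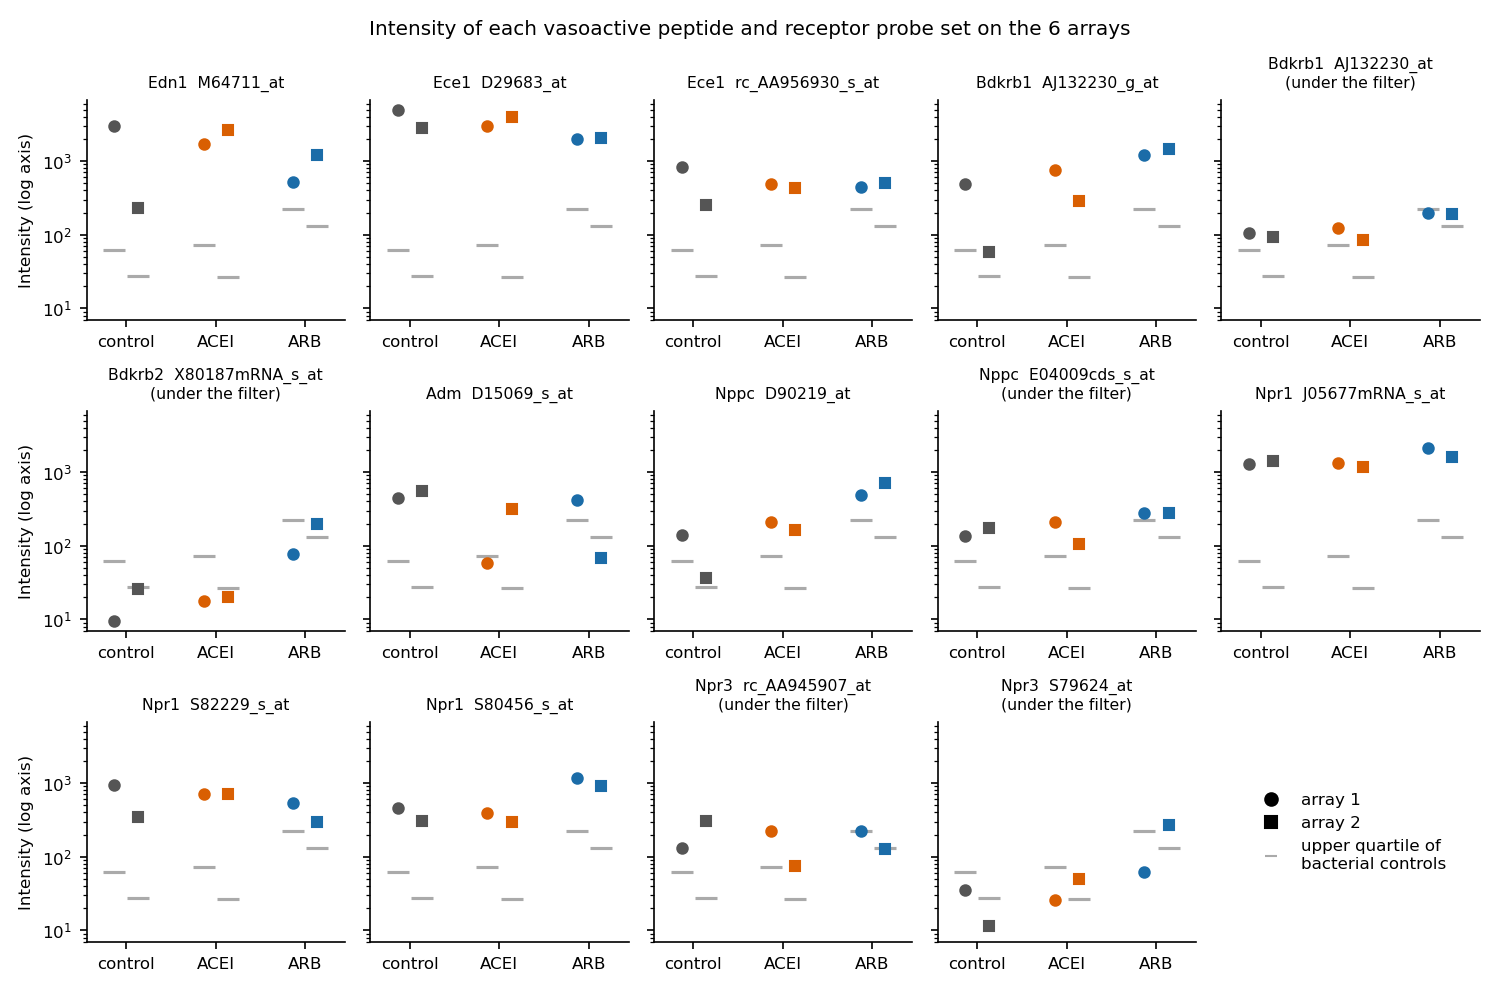
Intensity (log axis) of each member probe set on the 6 arrays, with control in grey, ACEI in orange and ARB in blue, circles for array 1 and squares for array 2. Grey dashes are the upper quartile of 15 bacterial control probe sets on the same array, which was 223.9 and 130.8 on the ARB arrays and 26.35 to 71.8 on the others. Edn1 spans 3014 to 233.8 within control. Bdkrb1 AJ132230_g_at and Nppc D90219_at are highest on both ARB arrays, as are other members, among them Bdkrb2 and Npr3 S79624_at under the filter.

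The kinin B1 receptor had the largest difference from control of the members. Bdkrb1 AJ132230_g_at read 483.3 and 58.2 in control, 746.9 and 288.9 in ACEI, and 1218 and 1455 in ARB. Both ARB arrays exceeded all 4 others, and the ACEI arrays lay on either side of control 1. ARB minus control was 2.29 ± 0.70 (SE, 0.68 to 3.89), a fold of 4.88 on this scale, with an unadjusted p under 0.05 and an adjusted p = 0.21 by limma over all tested probe sets. It was 3.26 within the later run day, and 1.31 without control 2, in which this probe set was lowest. After quantile normalization it was 2.05 and after cyclic loess 1.86. ARB minus ACEI was 1.34 ± 0.70 (-0.27 to 2.94, adjusted p = 0.29). ACEI minus control was 0.95 ± 0.70 (-0.65 to 2.55, adjusted p = 0.99), with 0.55 in the first and 1.35 in the later run day.

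The second Bdkrb1 probe set was dim. Bdkrb1 AJ132230_at read 106 and 94.1 in control, 123.9 and 85.9 in ACEI, and 200.1 and 190.6 in ARB, and it lay under the filter. Both ARB arrays were again above the rest, yet on ARB 1 the value was below the upper quartile of the bacterial controls (223.9). ARB minus control was 0.59 ± 0.35 without the filter, close to the median of 0.63 over all probe sets under the filter, and -0.054 after quantile normalization. The 2 probe sets carry the same sequence accession in their names and gave differences of unequal size.

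The B2 receptor, the constitutive kinin receptor, had 1 probe set, also under the filter. Bdkrb2 X80187mRNA_s_at read 9.4 and 26.1 in control, 17.6 and 20.1 in ACEI, and 76.3 and 196.1 in ARB. All values on control and ACEI arrays lay below the upper quartile of the bacterial controls of their array, as did ARB 1, and only ARB 2 exceeded its quartile of 130.8. ARB minus control was 1.02 ± 0.41 without the filter, and 0.48 after quantile normalization.

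Of the other kinin genes, Kng2, a kininogen gene, read lowest in ACEI and highest in ARB. Kng2 K02814_at read 214.9 and 369.3 in control, 70.6 and 50.3 in ACEI, and 560.7 and 589.3 in ARB. The 3 groups did not overlap, and ACEI 1 lay just below the upper quartile of its bacterial controls (71.8). ARB minus ACEI was 2.15 ± 0.46 (SE, 1.10 to 3.20, adjusted p = 0.13 by limma), and ACEI minus control was -1.32 ± 0.46 (-2.37 to -0.27, adjusted p = 0.99) and -1.35 after quantile normalization. The ARB difference from control was 0.83 ± 0.46 (-0.22 to 1.88, adjusted p = 0.37) and 0.23 after quantile normalization. Klk1c12, of the kallikrein family whose members can release kinins, read 144.1 and 249.4 in control, 226.2 and 16.9 in ACEI, and 603 and 710.4 in ARB. Both ARB arrays lay above the rest, with ARB minus control 1.40 ± 0.59 (adjusted p = 0.28), and 0.83 after quantile normalization. Its probe set is of the f type, designed on a family of near-identical genes, so which kallikrein gene it read is uncertain.

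Adrenomedullin, a dilator peptide of endothelium and smooth muscle, was lower in each treated group than in control, with a wide spread. Adm D15069_s_at read 438.9 and 549.3 in control, 58.7 and 317 in ACEI, and 411.3 and 68.5 in ARB. All 4 treated arrays lay below both control arrays, but 1 array of each treated group was low and the other, in ARB, only slightly below control 1. The low values were not above background: ACEI 1 lay under the upper quartile of its bacterial controls (71.8) and ARB 2 under their median (80.9), so the size of the differences is uncertain. The mean of both treated groups minus control was -1.14 ± 0.60 (SE, -2.51 to 0.23, adjusted p = 0.86 by limma), ACEI minus control -1.24 ± 0.69 (adjusted p = 0.99) and ARB minus control -1.04 ± 0.69 (adjusted p = 0.45). Within run days ACEI was -1.83 in the first and -0.65 in the later, and ARB -1.18. Without ARB 2 the ARB difference was -0.21, and without ACEI 1 the ACEI difference was -0.51. The ARB and ACEI arrays overlapped, at 0.20 ± 0.69, with -0.40 after quantile normalization. Calcrl, the receptor that binds adrenomedullin together with an accessory protein, read 760 and 164.4 in control, 678.3 and 732.6 in ACEI, and 673.4 and 712.7 in ARB, so control 1 was highest and control 2 lowest.

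C-type natriuretic peptide, which endothelium releases and which acts on neighbouring smooth muscle, was the member with the lowest unadjusted p against control. Nppc D90219_at read 138.7 and 36.2 in control, 211.7 and 161.2 in ACEI, and 488.8 and 717.6 in ARB. The 3 groups did not overlap, with control lowest and ARB highest. ARB minus control was 2.01 ± 0.50 (SE, 0.87 to 3.15), a fold of 4.02 on this scale, with an unadjusted p under 0.05 and an adjusted p = 0.20 by limma. It was 2.44 within the later run day, and 1.58 without control 2, in which this probe set was lowest. After quantile normalization it was 1.48 and after cyclic loess 1.32. ACEI minus control was 0.70 ± 0.50 (-0.44 to 1.84, adjusted p = 0.99), with 0.40 in the first and 0.99 in the later run day. ARB minus ACEI was 1.31 ± 0.50 (adjusted p = 0.18), and 0.74 after quantile normalization. The other Nppc probe set, E04009cds_s_at, lay under the filter and read 135.4 and 172.8 in control, 211.5 and 104.1 in ACEI, and 274.2 and 273.9 in ARB. Here ACEI and control overlapped, and ARB minus control was 0.58 ± 0.39 without the filter and -0.10 after quantile normalization.

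The 3 probe sets of Npr1, the guanylate cyclase receptor of atrial and B-type natriuretic peptides, did not move together. Npr1 J05677mRNA_s_at read 1267 and 1414 in control, 1334 and 1152 in ACEI, and 2096 and 1584 in ARB. Npr1 S80456_s_at read 451.4 and 306.5 in control, 389.4 and 298.9 in ACEI, and 1188 and 903.6 in ARB. In both, the ARB arrays were the highest and ACEI overlapped control. Npr1 S82229_s_at read 931.2 and 349.3 in control, 710.7 and 716.2 in ACEI, and 532.8 and 298.9 in ARB, so ARB lay below ACEI and overlapped control. ARB minus control was 1.28 ± 0.46 for S80456_s_at (SE, 0.23 to 2.34, adjusted p = 0.24 by limma) and was 0.87 after quantile normalization. It was 0.42 ± 0.45 for J05677mRNA_s_at (-0.60 to 1.44) and -0.44 ± 0.55 for S82229_s_at (-1.70 to 0.81), the latter -1.03 after quantile normalization. Within the later run day these were 1.51, 0.35 and 0.16. ARB minus ACEI for S80456_s_at was 1.38 ± 0.46, with the lowest adjusted p of any member in any comparison (adjusted p = 0.15). ACEI minus control lay between -0.10 and 0.26 for the 3 probe sets. The s type of probe set can match more than 1 transcript.

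The clearance receptor gene Npr3 had 2 probe sets under the filter. Npr3 rc_AA945907_at read 131.7 and 307.6 in control, 225.1 and 75 in ACEI, and 224.1 and 127.7 in ARB, and all groups overlapped. Npr3 S79624_at read 35.6 and 11.4 in control, 25.8 and 49.6 in ACEI, and 62.1 and 266 in ARB, with both ARB arrays above the rest. It exceeded the upper quartile of the bacterial controls on only 2 of 6 arrays, and on ARB 1 it lay below their median (91.4). Its ARB minus control difference, which is therefore not one between levels above background, was 1.04 ± 0.49 without the filter and 0.52 after quantile normalization. Npr2, the receptor of CNP, read 485.3 and 382.9 in control, 616.3 and 639.1 in ACEI, and 731.1 and 1205 in ARB. All treated arrays lay above both controls, and the mean of both treated groups minus control was 0.72 ± 0.40 (adjusted p = 0.86 by limma).

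**Figure D2:**
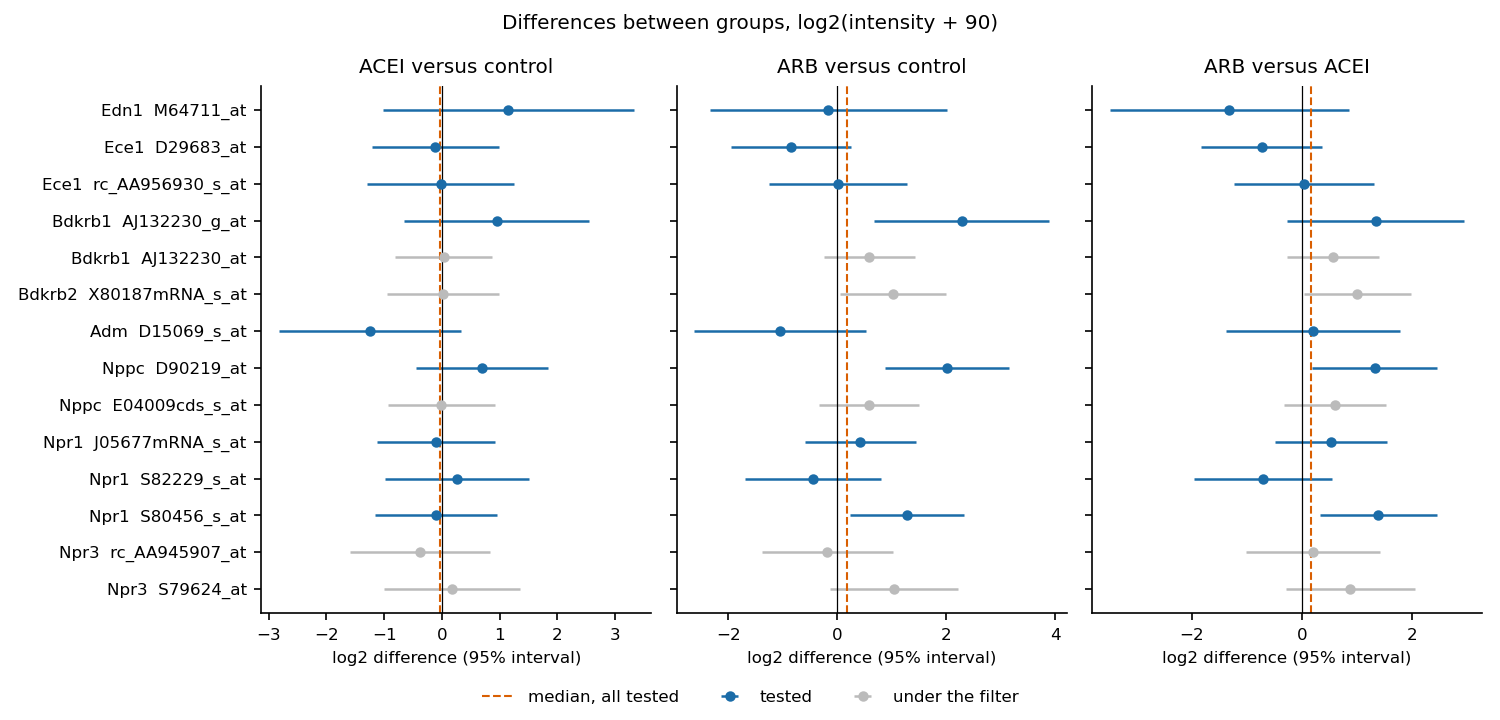
Log2 differences between groups with 95% intervals from limma, 1 row per member probe set, for ACEI minus control, ARB minus control and ARB minus ACEI. Blue points were tested and grey points lay under the filter, and the dashed line is the median of all tested probe sets (-0.040, 0.18 and 0.15). The intervals of Bdkrb1 AJ132230_g_at, Nppc D90219_at and Npr1 S80456_s_at, and of Bdkrb2 under the filter, lie above 0 for ARB minus control, before adjustment for the number of probe sets.

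The 3 tested members with the largest ARB differences were Bdkrb1 AJ132230_g_at, Nppc D90219_at and Npr1 S80456_s_at, and counts over the 9 tested members are given beside the share of all tested probe sets. For ARB against control, 0 of 9 were called after adjustment by limma (0% of all 5244 tested). An unadjusted p under 0.05 with a higher value was found for 3 of 9 (12.6% of all), a larger share on few probe sets, and with a lower value for 0 of 9 (4.69% of all). ARB arrays lay all above control for 4 of 9 (33.4% of all) and all below for 2 of 9 (16.8% of all), shares of the order seen for all probe sets. The members' median difference was 0.015 and that of all tested probe sets 0.18.

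For ACEI against control, 0 of 9 were called (0% of all), 0 of 9 had an unadjusted p under 0.05 with a higher value (1.2% of all) and 0 of 9 with a lower value (1.39% of all). ACEI arrays lay all above control for 1 of 9, Nppc D90219_at (11.6% of all), and all below for 1 of 9, Adm (11.9% of all). Medians were -0.019 for the members and -0.040 for all. For the mean of both treated groups against control, 0 of 9 were called (0% of all), and Bdkrb1 AJ132230_g_at at 1.62 ± 0.61 and Nppc D90219_at at 1.35 ± 0.43 were the 2 of 9 with an unadjusted p under 0.05 and a higher value (3.05% of all), against 0 of 9 lower (2.02% of all). All treated arrays lay above control for 1 of 9, Nppc D90219_at (4.63% of all), and below for 1 of 9, Adm (3.72% of all). Medians were 0.16 and 0.13.

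For ARB against ACEI, which shares the ARB arrays with the comparison against control, 0 of 9 were called (0% of all). An unadjusted p under 0.05 was found for 2 of 9 with a higher value, Npr1 S80456_s_at and Nppc D90219_at (15.6% of all), and for 0 of 9 with a lower value (6.71% of all). ARB lay all above ACEI for 4 of 9 (37.1% of all) and all below for 3 of 9 (25.3% of all), namely Edn1, Ece1 D29683_at and Npr1 S82229_s_at. Medians were 0.20 and 0.15. Over all tested probe sets, the unadjusted counts were 266 for both treated groups against control, 136 for ACEI, 905 for ARB and 1171 for ARB against ACEI. In the same order, the counts called after adjustment were 60, 261, 15 and 305 without control 1 and 2, 0, 46 and 305 without control 2, with 0 members among them. In these fits the remaining control array is assumed to vary like the ACEI and ARB arrays, which alone give the spread, and the 305 is the same as from the ACEI and ARB arrays alone.

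Differences between ARB and control depended on the level of a probe set. With the tested probe sets in 4 equal classes of level, their median was 0.58 in the dimmest class, 0.43 and 0.11 in the next and -0.27 in the brightest, and it was 0.63 under the filter. Nppc D90219_at and Adm lay in the dimmest class, Bdkrb1 AJ132230_g_at, Npr1 S80456_s_at, Npr1 S82229_s_at and Ece1 rc_AA956930_s_at in the next, Npr1 J05677mRNA_s_at and Edn1 in the third and Ece1 D29683_at in the brightest. Bdkrb1 AJ132230_g_at had a higher difference than 98.6% of tested probe sets and Nppc D90219_at than 97.7%. The 5 members under the filter lay between -0.18 and 1.04. For ACEI against control, the medians by class were between -0.11 and -0.013.

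**Figure D3:**
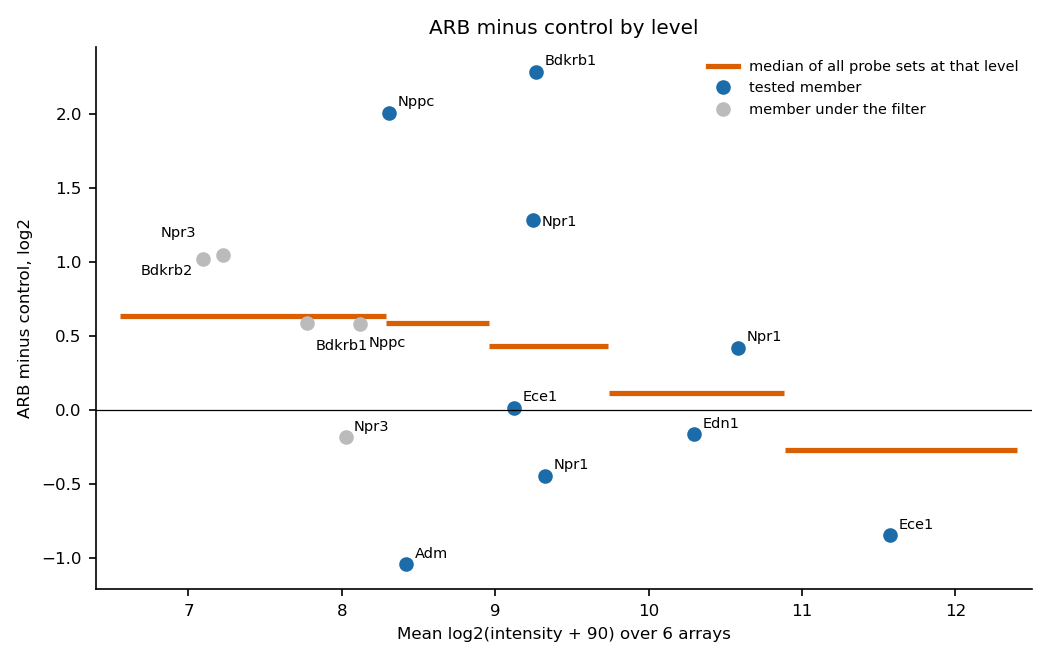
ARB minus control (log2) of each member probe set against its mean log2(intensity + 90) over 6 arrays. Orange lines are the median difference of all probe sets at that level, from 0.63 under the filter to -0.27 in the brightest class, whose range goes on beyond the right edge. Bdkrb1 AJ132230_g_at at 2.29 and Nppc D90219_at at 2.01 lie highest, and Adm at -1.04 lowest.

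Quantile normalization, which gives every array the same distribution, lowered the ARB minus control difference of 13 of the 14 member probe sets, and raised that of Ece1 D29683_at from -0.85 to -0.78. It moved the median of all tested probe sets from 0.18 to -0.072. Bdkrb1 AJ132230_g_at, Nppc D90219_at and Npr1 S80456_s_at kept a positive difference under each scaling run, as did Npr1 J05677mRNA_s_at. So did Bdkrb2 and Npr3 S79624_at, which lay under the filter.

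**Figure D4:**
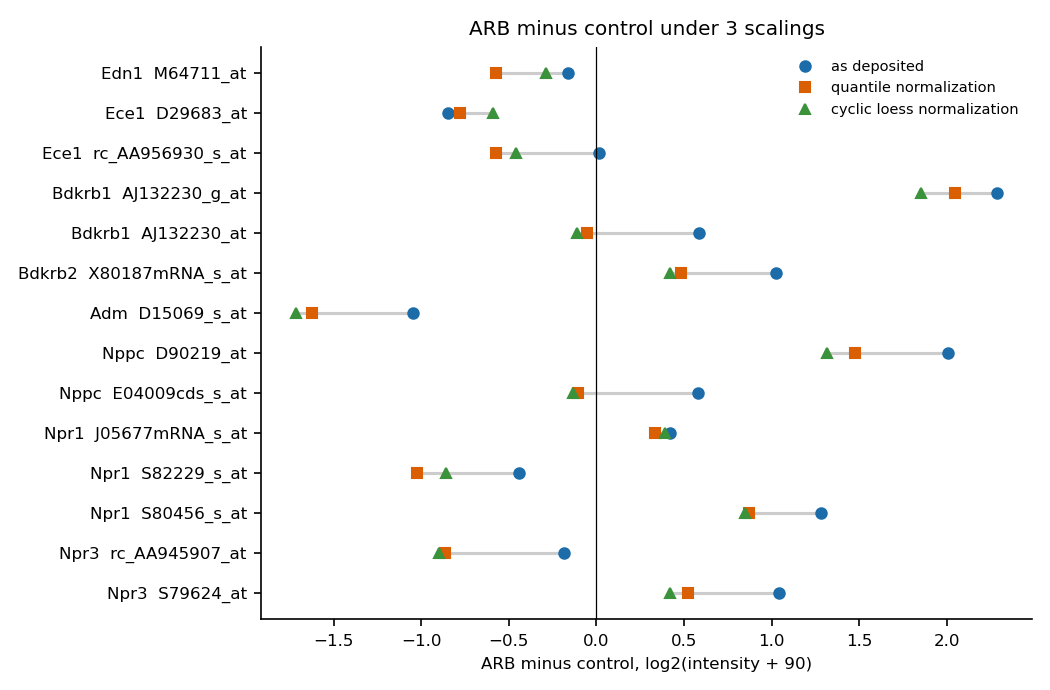
ARB minus control (log2) of each member probe set on the deposited scale (circles), after quantile normalization (squares) and after cyclic loess normalization (triangles). Ece1 rc_AA956930_s_at, Bdkrb1 AJ132230_at and Nppc E04009cds_s_at change sign, for example from 0.58 to -0.10 in the last.

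Markers of other cell types moved with the ARB arrays. All 11 of 11 tested neuronal markers were higher in ARB than in control, 5 with an unadjusted p under 0.05 by limma. Of all tested probe sets 58.12% were higher, and 12.6% were higher with such a p. After quantile normalization Nefl (-0.24) and Nefh (-0.28) were lower, and the other tested neuronal markers stayed higher. The summed level of the neuronal markers was 3892 to 5616 in control, 7306 to 7989 in ACEI and 10630 to 13210 in ARB. Of the neuronal markers 3 of 11 had groups that did not overlap, in the order control, ACEI, ARB. The share of all tested probe sets with this order was not counted. It can be at most the 11.6% with ACEI all above control, and ARB lay all above ACEI for 37.1%. One of these 3 markers was Snap25 AB003991_at, of a synaptic vesicle fusion gene. It read 345 and 298.7 in control, 630.2 and 456.5 in ACEI, and 908.3 and 1141 in ARB. Snap25 AB003991_g_at, under the filter, overlapped across groups. Of the astrocyte markers 4 of 6 were lower, with summed levels of 25070 to 34310 in control, 35640 to 48930 in ACEI and 11550 to 12250 in ARB. Of the oligodendrocyte markers 6 of 7 were lower, with 10510 to 16580, 21810 to 22120 and 7699 to 8168, and of the microglia and macrophage markers 7 of 9, with 34020 to 41010, 21060 to 43850 and 14460 to 15670. Smooth muscle and pericyte markers were lower for 9 of 14, with 47760 to 57630 in control, 32960 to 33220 in ACEI and 33970 to 37610 in ARB. Blood markers were lower for 5 of 6, with 57610 to 171600, 50610 to 72490 and 53630 to 62950. The astrocyte, smooth muscle and blood sums rest in large part on a few bright genes. In control, Glul read 21670 and 14160, Acta2 19510 and 23120, and Hbb 21900 and 90200. Acta2 X06801cds_f_at and X06801cds_i_at, also past the filter but not in the sum, overlapped between control and both treated groups. X06801cds_f_at read 2881 and 905.9 in control, 3680 and 1204 in ACEI, and 1423 and 1280 in ARB. For X06801cds_i_at these were 5584 and 487.7, 3472 and 1050, and 1281 and 1997. No marker list had a called gene, no defining marker read 0, and their part in the members' values was not tested.

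The other genes of these pathways were taken from a list of 45, of which 30 had a probe set and 14 passed the filter, and 0 of 14 were called in any comparison. Against control, 9 of 14 were higher and 5 lower with ARB, 2 of the higher ones with an unadjusted p under 0.05, and the median was 0.38. Of all tested probe sets 58.12% were higher, and 12.6% were higher with such a p, so these counts were near the general rate. With ACEI 6 were higher and 8 lower, 1 of the lower ones with an unadjusted p under 0.05 (1.39% of all), and the median was -0.052. Lnpep, an aminopeptidase that cuts vasoactive peptides, read 174.5 and 129.9 in control, 235.2 and 76.3 in ACEI, and 552.5 and 723.2 in ARB. Both ARB arrays exceeded the rest, with ARB minus control 1.58 ± 0.50 (SE, 0.43 to 2.74, adjusted p = 0.23 by limma) and 1.03 after quantile normalization. Pde2a, a phosphodiesterase that breaks down cyclic nucleotides, read 958.5 and 127.9 in control, 811.2 and 2083 in ACEI, and 137.7 and 219.2 in ARB. It was lower on both ARB arrays than on both ACEI arrays, at -2.40 ± 0.77 (-4.16 to -0.63, adjusted p = 0.15), while the control arrays lay far apart. Furin, a protease that activates peptide precursors, read 2511 and 5206 in control, 2075 and 2602 in ACEI, and 2735 and 2304 in ARB, with treated and control arrays overlapping. Another Furin probe set past the filter, X55660_at, read 2118 and 635.6 in control, 1639 and 1502 in ACEI, and 327.2 and 1285 in ARB. Its control arrays thus lay in the opposite order.

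Probe sets whose values followed a member most closely were ranked by Pearson's r of log2 values over the 6 arrays, as a description with no test. For Edn1 they were Grip2 at 0.998, Plpp1 at 0.997 and Pea15 at 0.988, all highest or nearly so on control 1 and lowest on control 2. For Bdkrb1 AJ132230_g_at they were Cdkn1c at 0.997, Foxj1 at 0.993 and Cast at 0.992. For Nppc D90219_at they were Tubg1 at 0.993, Chrm3 at 0.991 and Grin3a at 0.986. For Adm the closest were looser, with S100a10 at 0.922, Lcp2 at 0.920 and Nup54 at 0.918. All points share the 6 arrays and their scaling, and among 5244 probe sets many reach such values over so few arrays.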

How the data were processed

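Intensities were taken from the deposited value table, 1 per probe set and array, on a linear scale with no detection calls. From the values, each array's mean, trimmed by 2% at either end, was 997.7 to 1002. The software and background correction are not given in the sources used here. Run settings, days, chip lots and fluidics protocols come, per the file headers, from 1 run file per array, and these settings were used only for grouping arrays by run. The number of arrays limits the precision.

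Genes were named from the platform annotation, and 7018 probe sets carried 1 symbol, 308 several and 1473 none. Of all 8799 probe sets, 59 control probe sets were left out. Values were transformed as log2(intensity + 90), where 90 is the median of values above 0 (358.3) over 4. Those in the lowest 40% by mean log2 value were dropped, and 5244 were tested with limma 3.58.1 (R 4.3.3): 1 mean per group over all 6 arrays, two-sided moderated test, Benjamini-Hochberg adjustment over all tested, threshold 0.05. The first run ranked probe sets by mean intensity for this filter, and the mean log2 value was chosen after results had been seen. The code was tested on simulated data. Alternatives were other offsets, filters and normalizations, blocks, subsets of arrays and leaving out each array.

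All member probe sets are given. Other pathway genes are named by the size of their difference. The members, the lists and this rule were chosen with earlier results of these data known. A gene with several probe sets is represented in lists by that with the highest mean. RefSeq sequences, build GRCr8, were matched by symbol and searched with Python 3.11.15.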

Additional observations from a re-analysis of the deposited data

Results flagged for a closer look

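Kng2 was lower than control on both ACEI arrays and higher than control on both ARB arrays, so the treated groups lay on opposite sides of control. The difference itself, ARB minus ACEI, was 2.15 ± 0.46 (SE) on the log2 scale, higher in 2 of 2 ARB arrays. It did not pass limma's test after adjustment (adjusted p = 0.13). ARB arrays lay all above ACEI for 37.1% of all tested probe sets. On ACEI 1 Kng2 read 70.6, just below the upper quartile of its bacterial controls (71.8). After quantile normalization ARB minus ACEI was 1.58. ARB minus control was 0.83 as deposited and 0.23 after this normalization, and ACEI minus control was -1.32 and -1.35. The control arrays, which both comparisons share, spanned 214.9 to 369.3.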

How the results depend on the processing

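The count of members called after adjustment was 0 in each comparison under each alternative run. It was out of 9 tested members, or 14 with no filter and 6 with the lowest 60% left out. The count over all tested probe sets, 0 as reported, was small and unstable. For both treated groups, ACEI, ARB (each against control) and ARB against ACEI, it was 3, 3, 4 and 4 with the offset at the median of values above 0 and 3, 2, 4 and 1 with the replicate block. For both treated groups it was 1 after quantile and 1 after cyclic loess normalization, and for ARB against ACEI 305 from only those arrays. Leaving out each array in turn gave 0 to 60, 0 to 261, 0 to 46 and 0 to 305. A group left with 1 array is assumed there to vary like the others. Same-numbered arrays shared a fluidics protocol, and those of control and ACEI also a run day and a chip lot. They deviated from their groups with correlations of 0.045, -0.015 and -0.0037, which cannot exclude a pairing. The labels name no pairing, so a call under the block is not preferred. A filter on the mean intensity, added after seeing the data, called 0 in each comparison and tested the same number of members. A filter leaves each member difference unchanged, so it could not reverse any.

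Differences near 0 reversed most often. Ece1 rc_AA956930_s_at was 0.039 (both treated groups) and 0.019 (ACEI) with an offset of 1, 0.20 (both) with run day as a block, and -0.028 (ARB) with the offset at the median. It was -0.57 (ARB) and -0.50 (ARB minus ACEI) after quantile and -0.46 and -0.43 after cyclic loess normalization. With run day as a block, Npr1 S82229_s_at was 0.060 (both), Edn1 0.50 (ARB) and Adm -0.24 (ARB minus ACEI), and Adm was -0.40 after quantile and -0.49 after loess. On the later run day alone, chosen after seeing the data, Ece1 rc_AA956930_s_at was 0.67 (both) and 0.61 (ACEI), Ece1 D29683_at 0.45 (ACEI), Npr1 S82229_s_at 0.52 (both) and 0.16 (ARB), Edn1 1.46 (ARB) and Adm -0.53 (ARB minus ACEI). The cause was not tested.

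Leaving out each array in turn, Edn1 ranged from -1.14 to 2.12 (both), -0.48 to 2.78 (ACEI) and -1.80 to 1.46 (ARB), and Ece1 rc_AA956930_s_at from -0.71 to 0.71, -0.73 to 0.69 and -0.70 to 0.73, and -0.053 to 0.12 for ARB minus ACEI. Npr1 S82229_s_at ranged from -0.70 to 0.52, -0.35 to 0.87 and -1.05 to 0.16. For ACEI, Ece1 D29683_at ranged from -0.50 to 0.27, Bdkrb1 AJ132230_g_at from -0.026 to 1.93 and Npr1 S80456_s_at from -0.33 to 0.12, and Adm for ARB minus ACEI from -0.63 to 1.03. With 2 arrays per group, and no detection calls, dim probe sets have no measured floor.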
